A study of Mus musculus with 3 samples.

Results

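Heparan sulfate is a long sugar chain that is built on core proteins in the Golgi and then trimmed at the cell surface, and the genes of 10 of its enzymes were examined in ChIP-seq peak lists of the forkhead factors Foxc1 and Foxc2 from mouse glomeruli. The genes were Ext1 and Ext2, Ndst1, Hs6st1, the 3-O-sulfotransferase genes Hs3st1, Hs3st3a1, Hs3st3b1 and Hs3st6, and the sulfatase genes Sulf1 and Sulf2, out of 21887 protein-coding genes. They were chosen by their role and by the peaks that earlier work on these lists had shown near some of them, so their counts below describe them and support nothing about the family. A gene was given every peak whose summit lay between its annotated ends or at most 50 kb outside them, and for Hs3st3b1 and Hs3st3a1 summits up to 150 kb away were followed as well. ChIP-seq recovers and sequences the DNA that an antibody against a protein pulls down, and a peak is a place where this DNA piles up over the local background. The libraries came from glomeruli of C57BL/6 mice aged 8 weeks, 1 with an antibody to Foxc1 (D8A6, CST), 1 with an antibody to Foxc2 (AF6989, R&D Systems), and 1 of input DNA, which was not analysed here. The labels give no genetic change or treatment, do not say whether animals were pooled, and name bead perfusion followed by digestion of the cortex as the way glomeruli were isolated. Glomeruli hold podocytes, mesangial cells and endothelium, so a peak cannot be placed in one of these cell types.

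Chain growth is carried out by a complex of Ext1 and Ext2. Ndst1 then swaps acetyl for sulfate groups on the glucosamine nitrogen, which opens the chain to the epimerase Glce and to sulfation by Hs2st1 and the 6-O-sulfotransferases such as Hs6st1. The 3-O-sulfotransferases add the rarest mark: Hs3st1 makes the site that antithrombin binds, and Hs3st3a1 and Hs3st3b1 make a site used by herpes simplex virus glycoprotein D. Sulf1 and Sulf2 work outside the cell and remove 6-O-sulfate from finished chains, which alters binding of growth factors. In the glomerulus these chains sit on agrin, perlecan and collagen XVIII in the basement membrane and on syndecans and glypicans of the cells, and loss of Ext1 or of Ndst1 in mouse podocytes changes their foot processes.

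On chromosomes 1 to 19, X and Y there were 5207 peaks for Foxc1 and 2878 for Foxc2. There was 1 library per antibody, so no value here has a spread between replicates and no test between conditions could be made. The lists carry no read counts, so the depth is unknown. Among cell type markers, the podocyte markers Nphs1, Podxl, Synpo and Wt1 all had a Foxc1 summit within 50 kb, and 3 of these 4 (all but Nphs1) had a Foxc2 summit. All 3 mesangial markers had Foxc1 summits and 1 had a Foxc2 summit. Of 4 endothelial markers 1 was reached by Foxc1 and 1 by Foxc2, and of 4 tubule markers 1 was reached by Foxc1 and 2 by Foxc2. Neither immune marker had a peak. Over all protein-coding genes 29.3% had a Foxc1 and 23.2% a Foxc2 summit within 50 kb. Lists this short, and peaks near a gene, cannot show which cells the libraries held. Fold enrichment below is the height of a summit over the peak caller's local background, as the authors' caller gave it, and ranks a peak only within its own list. Many peaks share the same fold. The 5207 Foxc1 peaks held 597 distinct folds and the 2878 Foxc2 peaks 323, so a small step in fold can pass many tied peaks. A Foxc1 fold of 4.27, for example, was held by 239 peaks.

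Of the 10 enzyme genes, 4 had a Foxc1 summit within 50 kb and 6 a Foxc2 summit. All 4 genes with a Foxc1 summit also had a Foxc2 summit: Hs3st3b1, Hs3st6, Sulf1 and Sulf2. Hs3st3a1 and Ext1 had Foxc2 summits alone, and Ext2, Ndst1, Hs6st1 and Hs3st1 had none of either antibody. The rule used these counts, and nothing is read from them. Among all protein-coding genes 29.3% had a Foxc1 summit within the same reach, 23.2% a Foxc2 summit and 12.5% both. The enzyme genes are long, with a median span of 73.2 kb against 17.2 kb for all protein-coding genes, which widens the stretch searched. The part of span length in these counts was not tested. The peaks numbered 6 for Foxc1 and 9 for Foxc2, and the median gene among the 10 had 0 Foxc1 peaks and 1 Foxc2 peak, against 0 and 0 over all genes. None of these 15 peaks overlapped a peak of the other antibody, and the nearest summits of the other antibody lay 11.9 kb away or farther. Over the whole lists 8.20% of Foxc1 and 14.8% of Foxc2 peaks overlapped by at least 1 bp, so nothing is read from the lack of overlap among 15 peaks. Counted by gene instead, such an overlap within 50 kb occurred at 3.39% of all protein-coding genes.

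**Figure D1:**
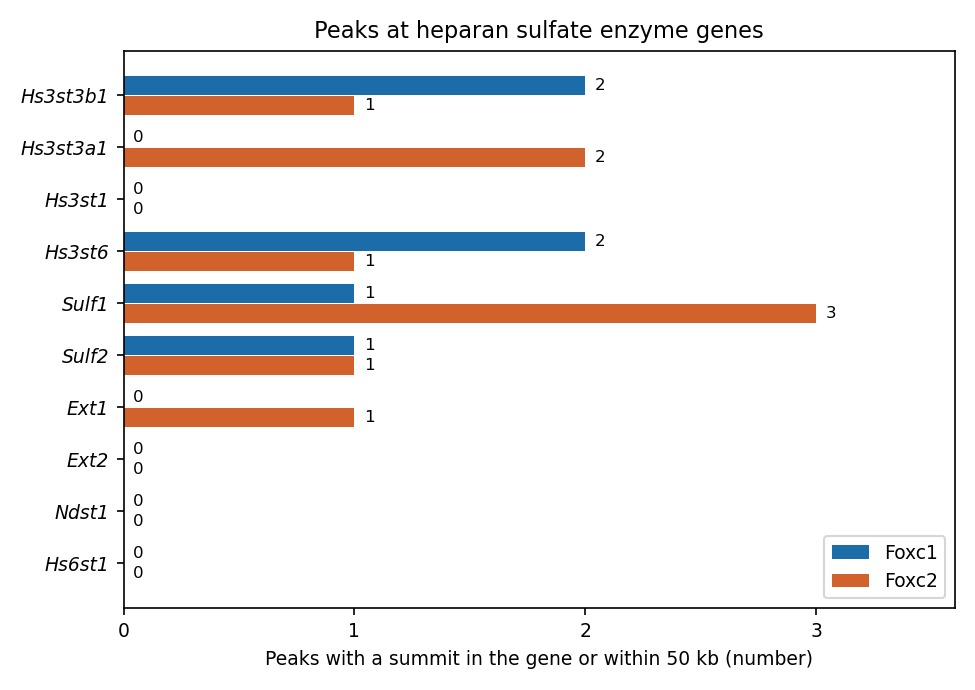
Number of Foxc1 peaks (blue) and Foxc2 peaks (orange) with a summit in each gene or within 50 kb of it, 1 library per antibody. Sulf1 has the most Foxc2 peaks (3), Hs3st3b1 and Hs3st6 have 2 Foxc1 peaks each, and 4 genes have none.

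The peak that ranked highest in its own list lay in a long stretch without protein-coding genes below Hs3st3b1, beyond the 50 kb limit. Hs3st3b1 (chromosome 11, 63884693 to 63922284, mm10) is transcribed on the minus strand, so that stretch lies past the 3′ end of the gene. The next protein-coding gene on that side, the predicted gene Gm29958, ends 240.3 kb away. There a Foxc1 peak at chr11:63775402-63775831 with a fold of 7.38 and a Foxc2 peak at chr11:63775379-63775840 with a fold of 13.0 covered the same place. The Foxc1 peak lay wholly within the Foxc2 peak over its 430 bp, and the summits were 32 bp apart. The Foxc2 fold ranked 5 in its list, while 79.9% of the Foxc1 list had a lower fold than the Foxc1 peak. Both summits were 109 kb from the nearest end of Hs3st3b1, and no annotated gene of any kind held them. Overlapping peaks within 150 kb were found at 7.69% of all protein-coding genes.

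Around that pair further peaks of each antibody were spaced without overlap. Foxc1 summits lay 57.2, 16.1 and 9.82 kb beyond the 3′ end of Hs3st3b1, with folds of 6.71, 6.49 and 4.27. All 4 Foxc1 peaks were thus on the 3′ side, and none lay in the gene or upstream of its start. A Foxc2 peak of fold 5.16 lay 99.2 kb beyond the 3′ end, 9.91 kb from the nearest Foxc1 summit. The third Foxc2 peak, of fold 3.44, lay 30.1 kb upstream of the start and 10.2 kb from an end of the neighbour Cox10, which encodes an enzyme of mitochondrial haem A synthesis. That was the single Foxc2 peak within 50 kb of Hs3st3b1, and its fold exceeded that of 18.1% of the list. Within 150 kb the gene had 4 Foxc1 and 3 Foxc2 peaks. At least as many lay near 5.56% of protein-coding genes for Foxc1 and near 8.40% for Foxc2, while 52.1% had any Foxc1 summit and 41.4% any Foxc2 summit at that distance. Hs3st3b1 and Hs3st3a1 were given the 150 kb reach with earlier results of these lists known. Such shares therefore describe these genes and support nothing about them. Within 50 kb the Hs3st3b1 counts of 2 Foxc1 peaks, 1 Foxc2 peak and no overlap were shared by Hs3st6 and by 303 genes outside the enzyme genes. Among these 303, the 5 of nearest span length were Zfp459, Spire2, Cars2, Armh1 and Bphl, with spans of 36.5 to 38.6 kb beside the 37.6 kb of Hs3st3b1.

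**Figure D2:**
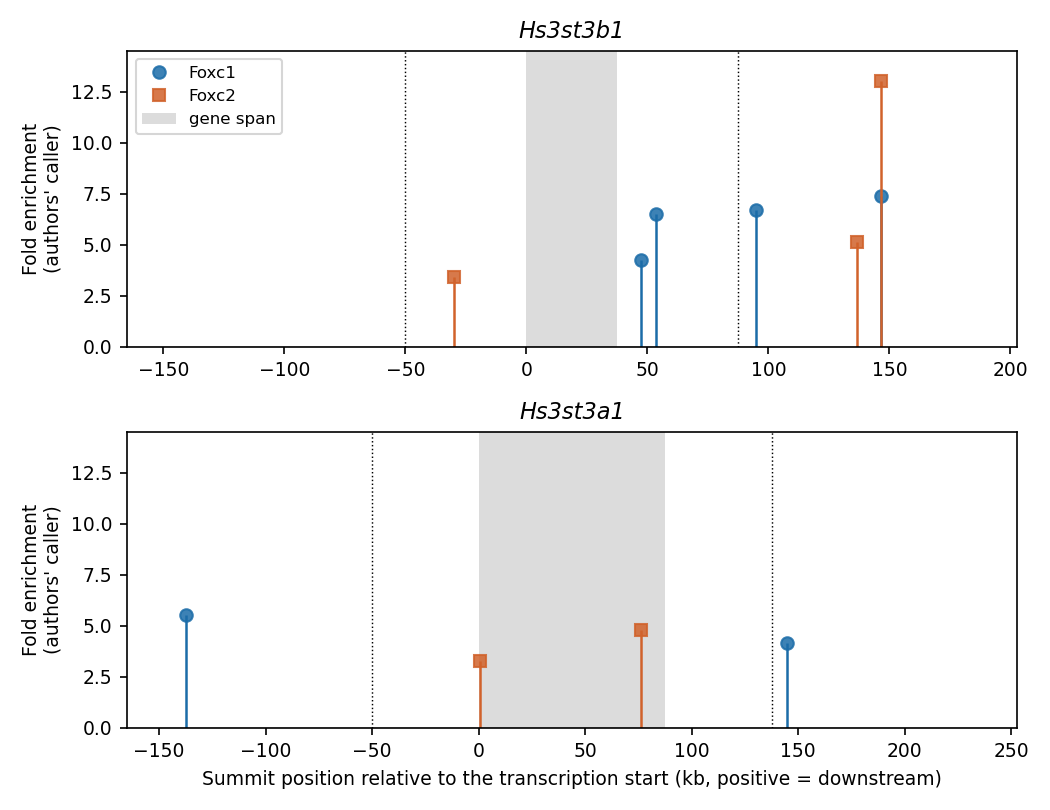
Foxc1 (blue circles) and Foxc2 (orange squares) summits near Hs3st3b1 and Hs3st3a1, by distance from the transcription start in kb (positive is downstream) and fold enrichment, which is not comparable between antibodies. Grey marks the gene span and dotted lines the 50 kb limit. At Hs3st3b1 the overlapping pair stands at the right, and at Hs3st3a1 the Foxc2 peaks fall inside the gene and the Foxc1 peaks far outside it.

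Hs3st3a1, the close relative that lies 513 kb from Hs3st3b1 on the same chromosome (64435332 to 64522835, plus strand), showed another layout. Its Foxc2 peaks were both inside the gene. The first, at chr11:64436048-64436415 with a fold of 3.27, had its summit 0.793 kb downstream of the start, in a stretch that also belongs to the long non-coding RNA gene F930015N05Rik. The second, of fold 4.81, lay 76.2 kb downstream of the start and 11.3 kb from the 3′ end. The first was among the weaker peaks of its list, of which 11.7% had a lower fold, against 76.5% for the second. No Foxc1 summit lay within 50 kb. The nearest ones were 57.1 kb past the 3′ end, with a fold of 4.14, and 137 kb upstream of the start, with a fold of 5.54. The nearest distance between summits of different antibodies at this gene was 68.5 kb. With 4 peaks within 150 kb in all, 2 of each antibody, the gene had as many as or fewer than 26.5% of protein-coding genes for Foxc1 and 18.9% for Foxc2.

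The sequences before the starts of these related genes are shown because no peak touched either of them. They are the 250 bases before the transcription start from RefSeq on GRCm38.p6, written 5′ to 3′ on the transcribed strand (Hs3st3b1 at chr11:63922285-63922534, minus strand, and Hs3st3a1 at chr11:64435082-64435331, plus strand), and capitals mark CpG dinucleotides.
Hs3st3b1: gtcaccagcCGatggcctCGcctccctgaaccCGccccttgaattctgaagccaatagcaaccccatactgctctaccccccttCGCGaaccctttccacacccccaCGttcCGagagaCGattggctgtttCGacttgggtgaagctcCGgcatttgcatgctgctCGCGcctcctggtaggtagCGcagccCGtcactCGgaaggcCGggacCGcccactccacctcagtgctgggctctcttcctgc
Hs3st3a1: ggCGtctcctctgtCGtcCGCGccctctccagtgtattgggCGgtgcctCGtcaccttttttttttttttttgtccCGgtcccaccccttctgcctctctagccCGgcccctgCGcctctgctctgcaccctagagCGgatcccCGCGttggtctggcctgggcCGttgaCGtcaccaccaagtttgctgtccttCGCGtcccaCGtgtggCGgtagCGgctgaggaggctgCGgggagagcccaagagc
The Hs3st3b1 stretch held 17 CpG dinucleotides at a GC content of 62.4%, and the Hs3st3a1 stretch 20 at 64%.

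Start windows of 300 bp, running from 250 bases before to 50 after an annotated start, were found for 6 of the 10 genes (7 windows, of which 2 belong to Sulf2). Ext1, Ndst1, Hs3st6 and Sulf1 had no window in the table. The Foxc2 peak that lies across an end of Ext1 could therefore not be set against a window. No Foxc1 and no Foxc2 peak overlapped any of the 7 windows. Across 21263 windows of protein-coding genes, 1.35% were overlapped by a Foxc1 peak and 6.06% by a Foxc2 peak. All 7 windows had a GC content above the median window (58 to 78% against 56.3%), and 6 had more CpG dinucleotides than the median of 13. The core of the forkhead motif, TAAACA or its reverse complement TGTTTA, was searched on both strands. It occurred once, in 1 window of Sulf2, and in 11.5% of all windows.

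That Sulf2 window is printed because it alone among the 7 held the motif. The 250 bases before the start (chr2:166155286-166155535, minus strand, RefSeq, GRCm38.p6) follow with the match in capitals. The nearest Foxc1 summit lay 12.2 kb from this start and the nearest Foxc2 summit 39.2 kb from it.
Sulf2: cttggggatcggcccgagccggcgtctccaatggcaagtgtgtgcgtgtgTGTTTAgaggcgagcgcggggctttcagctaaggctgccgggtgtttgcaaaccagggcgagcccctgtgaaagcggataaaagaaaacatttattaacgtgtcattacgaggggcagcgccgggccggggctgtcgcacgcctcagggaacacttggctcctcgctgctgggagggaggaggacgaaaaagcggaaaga

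The sulfatase genes had peaks of both antibodies, and every one lay inside the gene. Sulf1 (chromosome 1, 12692197 to 12861192) had 1 Foxc1 peak of fold 3.22 and 3 Foxc2 peaks with folds of 4.81, 5.16 and 3.71. The Foxc1 peak was near the bottom of its list, of which 2.80% had a lower fold. The Foxc2 peaks at folds of 4.81 and 5.16 stood above 76.5 and 82.7% of theirs. Their summits were 2.70 kb apart, and the third lay 46.4 kb farther into the gene. The Foxc1 summit, 5.55 kb from the nearest end of the gene, was 17.9 kb from the closest Foxc2 summit. No other peak of either antibody lay within 150 kb of the span, although Slco5a1, a solute carrier gene, lies 5.36 kb from it.

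Sulf2 (chromosome 2, 166073899 to 166155683, minus strand) had 1 peak of each antibody. The Foxc1 peak, of fold 3.86, had its summit 12.2 kb downstream of the nearest annotated start, and 16.3% of its list had a lower fold. The Foxc2 peak, of fold 4.46, lay 39.2 kb downstream of the start, and 66.4% of its list had a lower fold. The summits were 27.0 kb apart. Within 150 kb Sulf2 had 3 Foxc1 peaks and still 1 Foxc2 peak, and the first Foxc1 summit beyond the 50 kb limit lay 74.4 kb away.

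**Figure D3:**
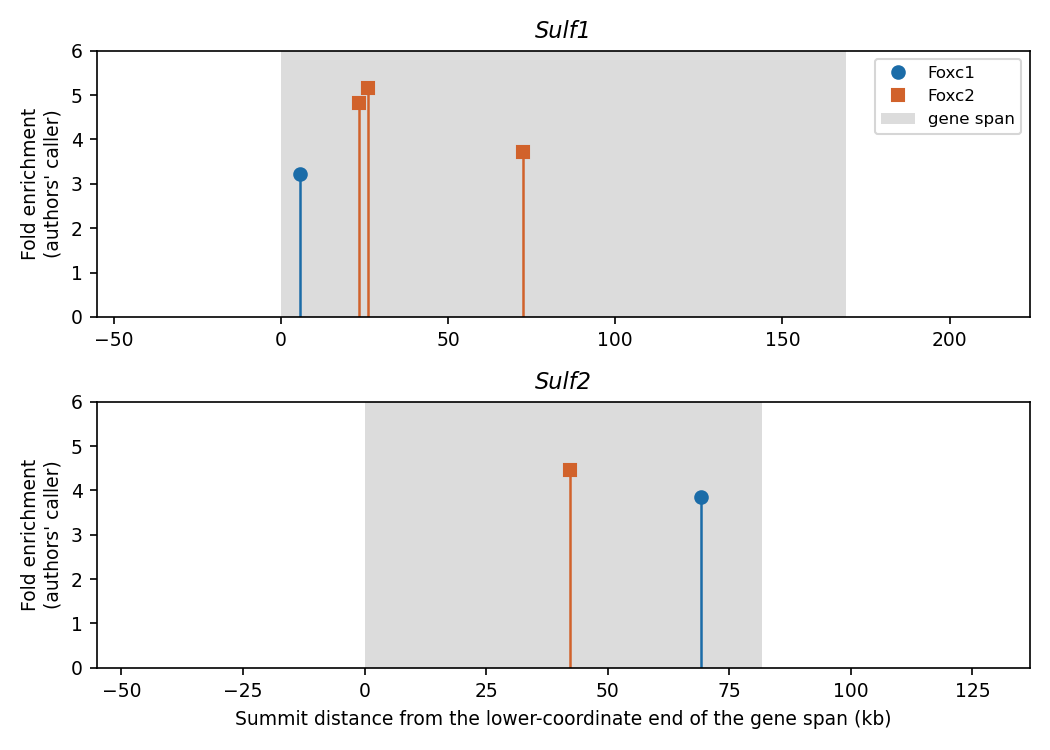
Foxc1 (blue circles) and Foxc2 (orange squares) summits at Sulf1 and Sulf2, by distance in kb from the end of the span with the lower coordinate and by fold enrichment, which is not comparable between antibodies. Grey marks the gene span. All summits lie inside the genes, and the antibodies' summits are at least 17.9 kb apart.

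Hs3st6 (chromosome 17, 24752988 to 24758690), a short 3-O-sulfotransferase gene of 5.70 kb, lies among closely packed genes, and its peaks were mostly nearer to others. One Foxc1 summit, of fold 5.55, was 44.6 kb from Hs3st6 and 0.701 kb outside Tbl3, a gene of ribosome biogenesis. The other, of fold 5.54, lay 19.7 kb from Hs3st6, whose end was the nearest of any protein-coding gene. In the Foxc1 list 101 peaks had that same fold. The single Foxc2 peak (chr17:24719997-24720417, fold 3.50) had its summit 32.7 kb away, inside Rps2, which encodes a protein of the small ribosomal subunit. This peak reached the start windows of Rps2 and of the non-coding RNA gene Snhg9. The summit at 44.6 kb was the outermost counted within 50 kb, and the first ones left out were a Foxc2 summit 56.8 kb from Hs3st6 and the Foxc1 summits 57.1 and 57.2 kb from Hs3st3a1 and Hs3st3b1.

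The bases before the Rps2 start show where the peak counted for Hs3st6 fell. They are 250 bases at chr17:24719813-24720062, plus strand (RefSeq, GRCm38.p6), and the 66 bases in capitals lie in the Foxc2 peak.
Rps2: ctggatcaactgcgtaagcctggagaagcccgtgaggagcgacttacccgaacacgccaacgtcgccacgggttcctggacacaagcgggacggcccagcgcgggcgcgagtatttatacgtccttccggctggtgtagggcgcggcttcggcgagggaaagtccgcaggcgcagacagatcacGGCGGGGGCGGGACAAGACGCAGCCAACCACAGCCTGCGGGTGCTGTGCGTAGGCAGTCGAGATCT

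Ext1, the chain-building gene with the longest span of the 10 (277.9 kb, chromosome 15, 53068261 to 53346183), had 1 Foxc2 peak at chr15:53346121-53346534. Its fold was 3.67, and 31.9% of the list had a lower fold. The summit lay 0.072 kb outside the gene's end of higher coordinate, closer to an end than any other peak near these genes. No strand was given for Ext1 in the table used, so the end was not assigned to the start or the stop of transcription. The nearest Foxc1 summit was 481 kb away, with a fold of 9.81. Ext2, its partner in the complex (chromosome 2, 93695631 to 93822568), had its nearest Foxc1 summit 83.3 kb away and its nearest Foxc2 summit 233 kb away.

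Hs6st1 (chromosome 1, 36068400 to 36106446) had its nearest Foxc1 summit 74.1 kb away, of fold 9.44, and its nearest Foxc2 summit 201 kb away. The nearest summits to Hs3st1 (chromosome 5, 39613935 to 39645592) were 1094 kb off for Foxc1 and 2818 kb for Foxc2. The next protein-coding genes on either side of Hs3st1 lay 737 and 1979 kb from it, so this is a stretch with few genes and few peaks. Within 150 kb Hs3st1 was alone among the 10 in having no peak of either antibody.

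Ndst1 (chromosome 18, 60684494 to 60749035) is the neighbour of Synpo, which encodes the podocyte actin-binding protein synaptopodin. It had no summit within 50 kb, but 6 Foxc1 and 3 Foxc2 summits within 150 kb, all of them inside Synpo. The nearest were 65.2 kb away for each antibody, and 2 of the Foxc1 peaks overlapped Foxc2 peaks. Counting up to 150 kb would thus give Ndst1 the peaks of its neighbour.

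The folds of the peaks counted here were ordinary for their lists, apart from the distal Foxc2 peak at Hs3st3b1. Within 50 kb the 6 Foxc1 folds ran from 3.22 to 6.49 with a median of 4.90, which is also the median of the list, where folds reached 50.5. The 9 Foxc2 folds ran from 3.27 to 5.16 with a median of 3.71, against 3.97 for the list, where they reached 15.99. Of these, 3 Foxc1 and 4 Foxc2 peaks were above the list median. With the summits up to 150 kb from Hs3st3b1 and Hs3st3a1 added, there were 10 Foxc1 and 11 Foxc2 peaks, and 1 of each overlapped. In the whole lists 8.20% of Foxc1 and 14.8% of Foxc2 peaks overlapped. Peak widths were 244 to 391 bp for Foxc1 and 210 to 421 bp for Foxc2 within 50 kb. Of the summits within 50 kb, 2 of 6 Foxc1 and 6 of 9 Foxc2 lay inside an enzyme gene, and 0 Foxc1 and 2 Foxc2 summits lay within 1 kb of an end of one, at Ext1 and Hs3st3a1. The matching shares over all peaks were not computed, so no difference between the antibodies is read from these counts.

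**Figure D4:**
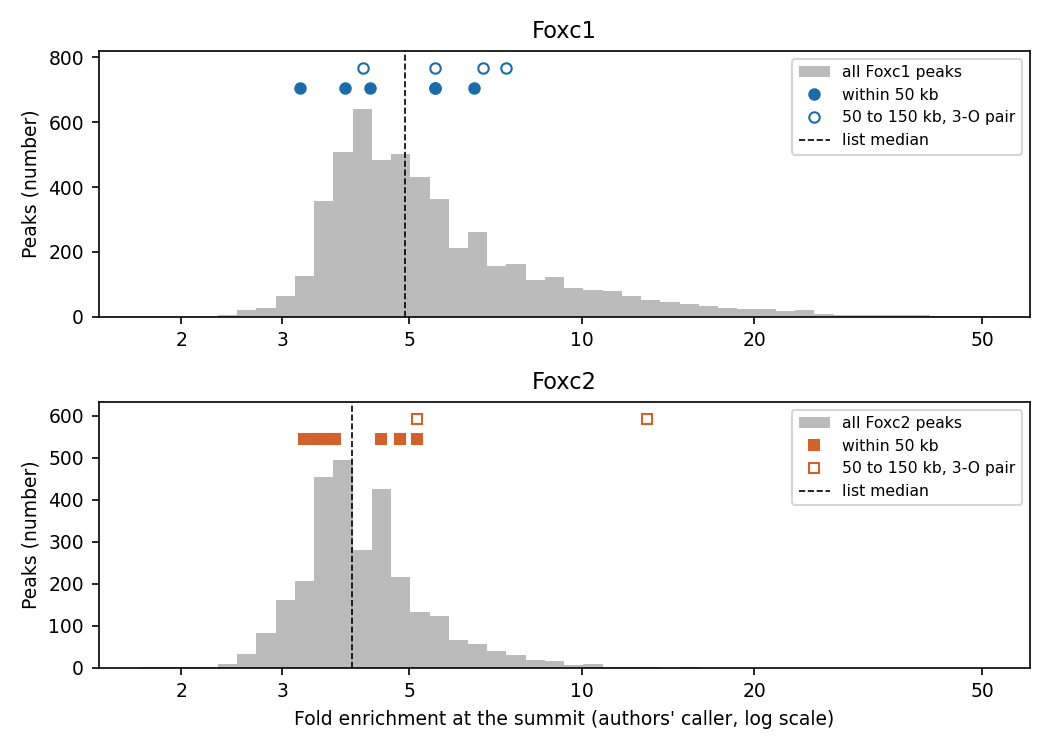
Number of peaks by fold enrichment (log axis) for all Foxc1 peaks (upper panel) and all Foxc2 peaks (lower panel), in grey, with the list median as a dashed line. Filled symbols mark peaks within 50 kb of the enzyme genes and open symbols those 50 to 150 kb from Hs3st3b1 or Hs3st3a1. The open Foxc2 symbol at 13.0 is the only one far into the upper tail.

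The wider pathway was read from a list of 60 heparan sulfate genes that includes the 10. Of these 60, 25 had a Foxc1 summit within 50 kb and 21 a Foxc2 summit, counts that draw on the 10 genes chosen partly for their peaks. Of the 50 other genes, 21 had a Foxc1 summit (42%, exact Clopper-Pearson 95% interval 28.2 to 56.8%) and 15 a Foxc2 summit (30%, exact interval 17.9 to 44.6%). Over all protein-coding genes the shares were 29.3% for Foxc1 and 23.2% for Foxc2. At 50 kb both intervals hold them, with the low end for Foxc1, 28.2%, close to its share. With 1 gene per summit the 60 genes gave 30% for Foxc1 and 20% for Foxc2, against 13.8 and 9.81% of all protein-coding genes. These were 18 genes for Foxc1 and 12 for Foxc2, with 4 of the 10 enzyme genes in each. Those shares of the 60 include the 10 genes and have no interval. No interval was computed for the 50 other genes under that rule, so the statement on intervals covers the 50 kb rule only. The distance from the share over all genes thus varied with the assignment rule. The median gene of the 60 had 0 peaks of each antibody, as over all genes, and a span of 47.2 kb against 17.2 kb, whose part in these shares was not tested. Intervals cover counting error only, genes that lie close together can share a peak, and no test was made.

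In the linker step, which joins the chain to the protein, 3 of 7 genes had a Foxc1 and 4 a Foxc2 summit. B3gat3, the glucuronyltransferase that ends the linker, had 3 Foxc2 peaks, all at least 22.2 kb from its ends, while B4galt7 had 2 Foxc1 and B3galt6 2 Foxc2 peaks. Among the other chain-growth genes Extl3, which starts the chain, had 2 peaks of each antibody, all inside it. The N-sulfation genes Ndst2 and Ndst3 had 2 Foxc1 peaks each, and none of the 4 Ndst genes had a Foxc2 peak. The epimerase gene Glce, the 6-O-sulfotransferase genes (3 of 3) and the heparanase genes Hpse and Hpse2 had no peak. Hs2st1, the 2-O-sulfotransferase, had 1 Foxc2 peak, and of the 3-O-sulfotransferases outside the enzymes above Hs3st4 had 1 Foxc1 peak, 0.183 kb from an end. Of 7 genes for sulfate donor and sugar precursors 3 had a Foxc1 and 3 a Foxc2 summit, led by Slc35b2, the carrier of the sulfate donor, with 2 Foxc1 peaks and 1 Foxc2 peak. Papss1 and Slc35d1 had 1 Foxc1 peak each, and Ugdh and Slc35d2 had 1 Foxc2 peak each. Of 8 lysosomal breakdown genes 5 and 2 did, with Naglu at 2 Foxc1 peaks and 1 Foxc2 peak, its highest Foxc1 fold being 15.98, Arsg at 2 Foxc1 peaks, and Gusb at 1 of each.

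**Figure D5:**
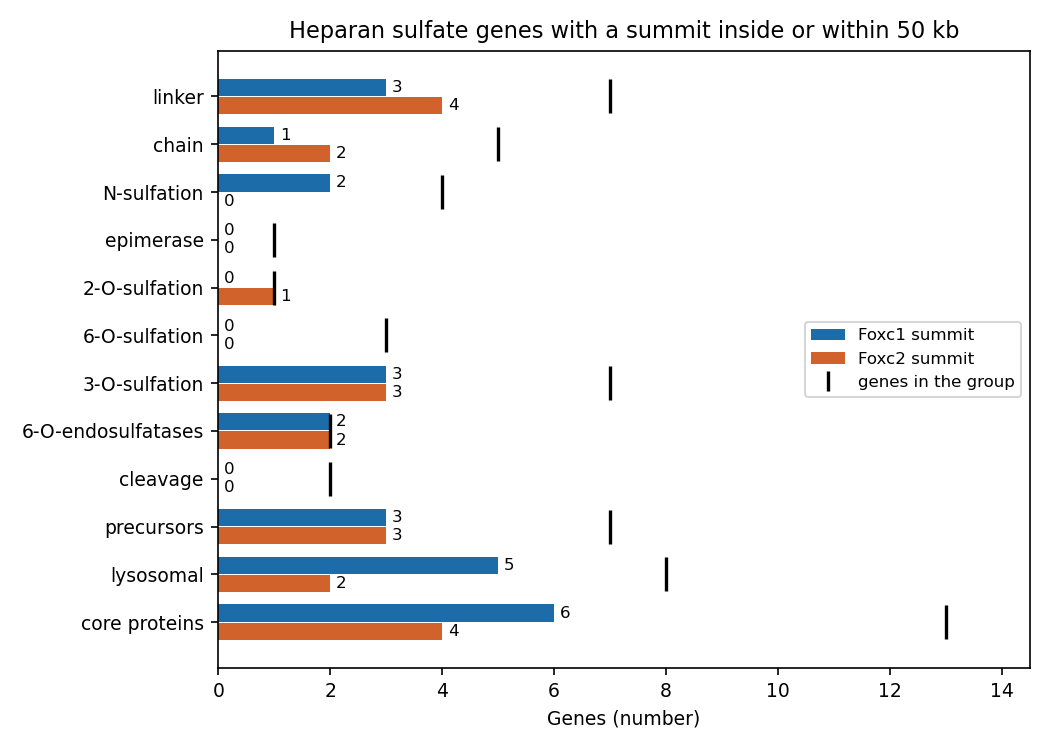
Number of heparan sulfate genes with a Foxc1 summit (blue) or a Foxc2 summit (orange) inside or within 50 kb, by step of the pathway, with a black tick at the number of genes in the step. Both 6-O-endosulfatase genes have summits of each antibody, and the 6-O-sulfation genes have none. Both endosulfatase genes and Hs6st1 are among the enzyme genes chosen partly for their peaks, so no difference between these steps is read.

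Start windows in the wider list were touched at a few genes. The other heparan sulfate genes had 50 windows, which covered 41 of the 50 genes, and genes without a window could not be counted. Of these windows, 3 were overlapped by a Foxc1 peak (Agrn, Fam20b and Naglu) and 4 by a Foxc2 peak (Agrn, B3galt6, Fam20b and Hs2st1). The Foxc1 peak at the Naglu start had a fold of 5.14 and is not the Naglu peak of fold 15.98. Over all windows the shares were 1.35% for Foxc1 and 6.06% for Foxc2, and counts this small describe single genes, not the pathway. Fam20b, the kinase that phosphorylates the linker xylose, had overlapping peaks of both antibodies there, with a Foxc1 fold of 8.23 and a Foxc2 fold of 4.30. The Foxc2 summit lay 38 bp upstream of the start and the Foxc1 summit 345 bp upstream. At Hs2st1 the Foxc2 summit lay 195 bp downstream of the start, with a fold of 4.0. Neither window held TAAACA or TGTTTA. The 250 bases before each start are printed because peaks of the pathway reach them (RefSeq, GRCm38.p6, both minus strand: Fam20b at chr1:156718911-156719160 and Hs2st1 at chr3:144570217-144570466). Capitals mark the bases inside the Foxc1 peak at Fam20b, where the Foxc2 peak covers the whole stretch, and inside the Foxc2 peak at Hs2st1.
Fam20b: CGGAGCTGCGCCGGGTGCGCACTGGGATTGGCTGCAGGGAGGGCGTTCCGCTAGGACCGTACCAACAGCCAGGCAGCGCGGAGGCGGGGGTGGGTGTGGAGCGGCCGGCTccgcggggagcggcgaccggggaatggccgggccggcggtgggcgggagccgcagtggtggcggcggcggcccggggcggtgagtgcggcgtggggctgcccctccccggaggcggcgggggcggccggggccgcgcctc
Hs2st1: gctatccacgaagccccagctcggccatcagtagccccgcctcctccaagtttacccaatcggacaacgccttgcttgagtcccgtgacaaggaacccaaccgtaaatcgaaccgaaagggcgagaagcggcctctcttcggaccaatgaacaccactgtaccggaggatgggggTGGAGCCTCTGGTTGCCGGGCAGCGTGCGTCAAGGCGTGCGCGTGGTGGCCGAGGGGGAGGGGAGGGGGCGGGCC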

How the data were processed

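ChIP-seq was performed with 1 library per antibody. Per the submitters' processing notes, Bowtie2, MACS2 and the mm10 build were used. Versions, settings, the control and any pooling were not given in the sources used here. Each antibody has 1 peak list that the authors deposited, with each peak's position, fold enrichment over local background (a ratio), minus log10 of p-value and q-value (−log10), a score that repeats the q-value and was not used, and the summit's offset from the peak start. No value gives read counts.

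From these lists summits were assigned to the RefSeq gene spans of GRCm38.p6, the assembly of mm10, with pandas 2.3.3 in Python 3.11.15. Peaks were called overlapping from 1 shared bp. Starts, strands and bases came from the RefSeq promoter table, which covers part of the genes. The assignment and overlap steps were tested on simulated data. The 10 genes, the pathway lists and the alternatives were chosen with earlier results of these data known, and all counts are descriptions without a test. From the other pathway genes, up to 3 per step with the most peaks were named, with ties at the third place included. Genes named for having no peak were chosen after their values were seen. Fam20b and Hs2st1 also had peaks at a start. Alternatives covered the distance, assignment to 1 gene per summit, a minus log10 q of 5, a fold of 5 and the overlap definition. Some podocyte markers are not reported here.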

Additional observations from a re-analysis of the deposited data

How the results depend on the processing

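Counts of 37 alternatives were compared with those above, of which 17 stayed within 1.5 times and 20 did not. The 17 include counts of overlapping peaks under stricter settings, where a count of 0 could only stay 0. With the gene span alone, 2 genes had a Foxc1 and 3 a Foxc2 summit, with 2 Foxc1 peaks, and 10 and 8 of the 60 pathway genes had a Foxc1 and a Foxc2 summit. Within 100 kb there were 8 genes with a Foxc1 summit, 18 Foxc1 and 14 Foxc2 peaks, and 2 overlapping pairs, both inside Synpo and counted for Ndst1. With 1 gene per summit, 12 pathway genes had a Foxc2 summit. With a minus log10 q of 5 or more, Foxc2 gave 3 genes (Hs3st3a1, Sulf1 and Sulf2), 4 peaks and 12 pathway genes. With a fold of 5 or more, Foxc1 gave 2 genes (Hs3st3b1 and Hs3st6), 3 peaks and 12 pathway genes, and Foxc2 gave 1 gene (Sulf1), 1 peak and 3 pathway genes. With 150 kb for Hs3st3b1 and Hs3st3a1, an alternative chosen after seeing the data, there was 1 overlapping pair. Over all protein-coding genes the shares with a Foxc1 and a Foxc2 summit were 9.53 and 7.58% for the span alone, 42.6 and 33.6% within 100 kb, 13.8 and 9.81% with 1 gene per summit, 27.2 and 11.5% at the q limit, and 16.9 and 3.90% at the fold limit. Fewer peaks pass the stricter limits and more the wider reach by construction. Depth is unknown, so a gene without a peak is a gene with none called in these lists, not one shown to lack binding.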

Other observations

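Of 13 genes for proteins that carry heparan sulfate, 6 had a Foxc1 and 4 a Foxc2 summit within 50 kb (exact Clopper-Pearson 95% intervals 19.2 to 74.9% and 9.09 to 61.4%). These intervals hold the shares over all protein-coding genes, 29.3% for Foxc1 and 23.2% for Foxc2. Sdc4, which encodes a syndecan of focal adhesions, had 2 Foxc1 peaks outside the gene and 5 Foxc2 peaks, 3 of them inside it, and its highest Foxc2 fold was 9.26. Agrn, which encodes agrin of the basement membrane, had 1 peak of each antibody, and they overlapped near its start, with a Foxc1 fold of 13.3 and a Foxc2 fold of 4.30. Col18a1, which encodes collagen XVIII, had 2 Foxc1 peaks and no Foxc2 peak, and Hspg2, which encodes perlecan, had none of either. Hspg2 was named here after its values were seen. The very long glypican genes Gpc5 and Gpc6 had 2 Foxc1 peaks each, all inside them, and their spans of 1433 and 1055 kb widen the stretch searched.

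The sister pathway of chondroitin and dermatan sulfate gave 7 of 16 genes with a Foxc1 summit (exact interval 19.8 to 70.1%) and 4 with a Foxc2 summit (25%, exact interval 7.27 to 52.4%). These intervals hold the same shares over all genes. Chst15, a sulfotransferase of that pathway, had 4 Foxc1 peaks with folds of up to 7.0 and no Foxc2 peak. Ust, the uronyl 2-O-sulfotransferase, had 2 Foxc1 peaks, both inside it, and no Foxc2 peak. Chpf and Csgalnact1, which act in building the chain, had 1 peak of each antibody.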
